A study of Mus musculus with 16 samples.

Results

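The genes described here are 32 members of the integrated stress response and of the serine and folate pathways that this response controls, measured in mouse hearts lacking CAP2, a protein that binds actin monomers and speeds the turnover of actin filaments. They were chosen by gene symbol as known members of these pathways, with earlier results of these data known, and comprise 7 transcription factors and coregulators, 3 serine enzymes, 5 folate enzymes, 2 proline enzymes, 5 amino acid transporters, 4 enzymes of asparagine, transsulfuration and glutathione metabolism, 2 secreted factors, and 4 further targets. All 32 were found among the 38087 genes listed for experiment A and the 54232 listed for experiment B. Dilated cardiomyopathy that depends on CAP2, and the MRTF/SRF pathway, are the subjects its title names. All mice were C57BL/6, and RNA was taken from whole flash-frozen hearts. Experiment A compared 3 wild-type and 3 CAP2 -/- females aged 86 weeks. Experiment B compared mice aged 13 weeks that all carried Loxp/Loxp alleles: 5 without Cre, 3 females and 2 males, are the controls, and 4 with Myh6-Cre, 3 females and 1 male, are called Cre+. The Myh6 promoter drives Cre in heart muscle cells, so other cells of these hearts kept an unrecombined Cap2. No group carried Cre without Loxp, so an effect of Cre itself and one of losing Cap2 cannot be told apart in experiment B.

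In the integrated stress response, kinases that sense different kinds of stress phosphorylate the translation factor eIF2, which lowers general protein synthesis while favouring translation of the transcription factor ATF4. ATF4, often paired with C/EBP family partners, then raises genes for amino acid uptake, for serine, folate and proline synthesis, and for secreted stress hormones. In heart and skeletal muscle with faulty mitochondria, the mitochondrial folate enzyme Mthfd2, the proline enzyme Pycr1 and the hormones Gdf15 and Fgf21 are known members of this programme.

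Depth in experiment A ran from 10750175 to 27440478 estimated counts per library, and values are given as CPM, counts scaled to the library total after TMM adjustment. Experiment B was deposited as normalized counts whose nuclear genes summed to between 3815980 and 4044523 per library, so its depth in reads is unknown. Cap2 itself lay at 197.4 to 228.4 CPM in wild-type hearts and at 8.36 to 16.1 CPM in CAP2 -/- hearts. In experiment B, Cap2 averaged 390.6 normalized counts in controls and 65 in Cre+ hearts, where the highest value was 87, and the groups did not overlap in either experiment. The summed level of 6 defining heart muscle genes (Myh6, Tnnt2, Tnni3, Actc1, Myl2 and Ryr2) was 74068 to 82237 CPM in wild-type and 85244 to 93762 CPM in CAP2 -/- hearts, with 1 of the 6, Actc1, called higher. In experiment B the sum was 217473 to 339606 normalized counts in controls and 207438 to 289572 in Cre+ hearts. The library of control replicate 4 stood apart, with a median Spearman correlation of 0.792 to the other libraries of experiment B against 0.892 to 0.926 for the rest. The labels do not say that replicates were separate animals, and if they were not, the p-values speak only for the spread among these libraries, which could be technical.

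In the young Cre+ hearts, the mitochondrial folate enzyme gene Mthfd2, the proline enzyme gene Pycr1 and the hormone gene Gdf15 rose, and the lipoprotein receptor gene Vldlr fell. In the old CAP2 -/- hearts, Vldlr fell and was the only member under the threshold of edgeR, the main test there. Nupr1 was higher in every CAP2 -/- library, with an adjusted p of 0.0888 by edgeR and 0.0356 by DESeq2. A gene is termed called when its p-value, adjusted by Benjamini-Hochberg over all genes tested, was under 0.05. With limma on log2(normalized count + 1), 3 of the 27 members tested in experiment B were called higher and 1 lower, where 0.947% of all 12141 genes tested were called higher and 0.931% lower (1.88% in all). The groups did not overlap for 7 members that were higher in all Cre+ libraries and for 1 that was lower, against 3.87% and 4.79% of all genes tested (8.66% in all). At an unadjusted p under 0.05 there were 11 members higher and 1 lower, against 7.89% and 14.2% of all genes. The median log2 difference was 0.72 over the 27 members and -0.12 over all genes. Slc7a11, Slc6a9, Cth, Cbs and Fgf21 had a mean under 10 normalized counts and were not tested. Their means in controls and Cre+ hearts were 0.4 and 0.25, 7.2 and 4.25, 8.4 and 2, 6.4 and 7.5, and 0.2 and 2.5, in that order. Pycr1, Gdf15 and Phgdh had control means under 10 and met that minimum only through their Cre+ libraries, so counts and medians over the tested members include genes that had to be higher in Cre+ hearts. These are whole hearts, in which fewer cells of a type and less RNA per cell cannot be told apart.

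In experiment A, edgeR's quasi-likelihood test called 0 of the 30 tested members higher and 1 lower, where 0.841% of all 16297 genes tested were called higher and 0.509% lower (1.35% in all). At an unadjusted p under 0.05 there were 5 members higher (Atf4, Ddit3, Nupr1, Mthfd2 and Gdf15) and 2 lower (Vldlr and Ddit4), against 5.11% and 5.32% of all genes. DESeq2 called 1 member higher, Nupr1, and 1 lower, Vldlr, where it called 2.36% of all genes. Without a filter on low counts edgeR called Gdf15, Mthfd2 and Nupr1 higher and Ddit4 and Vldlr lower, where it called 1.67% of all genes. In the authors' deposited table, 2.61% of genes have an adjusted p under 0.05, Nupr1 and Vldlr among them. Groups did not overlap for 2 members that were higher and 1 that was lower, against 7.63% and 8% of all genes (15.6% in all). The median log2 difference over the 30 members was 0.09, beside 0.0057 over all genes. Phgdh and Fgf21 had too few reads for the test.

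**Figure D1:**
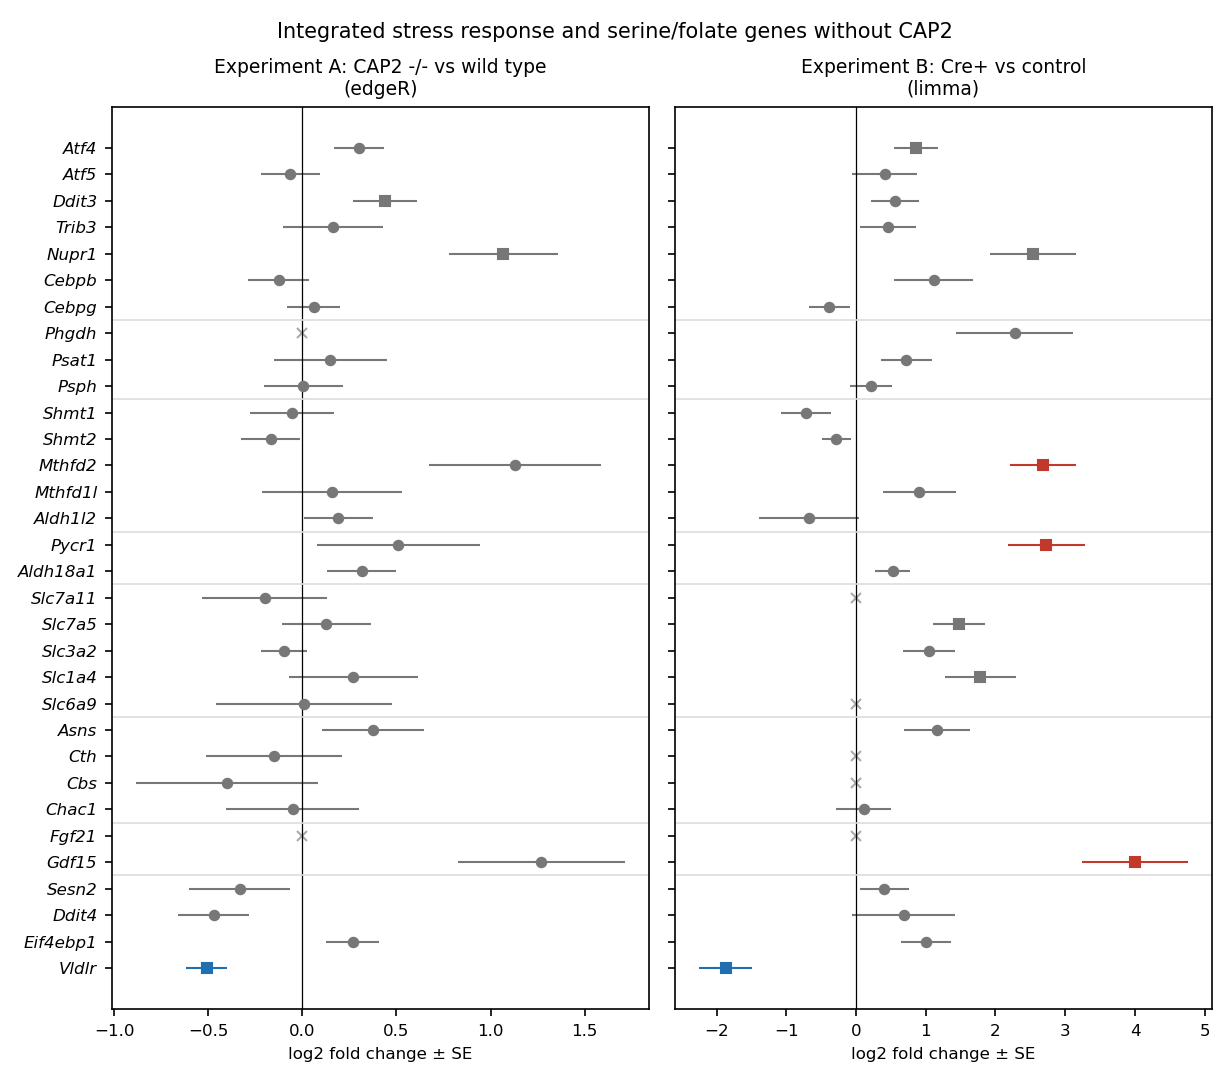
Log2 fold change with its standard error for each member, ordered by role, in CAP2 -/- against wild-type hearts (left, edgeR) and Cre+ against control hearts (right, limma). Red and blue mark the called rises and falls, squares mark members whose groups did not overlap, and crosses at 0 mark members that were not tested: Vldlr is blue in both panels, and Mthfd2, Pycr1 and Gdf15 are red only in the right panel. The horizontal scales of the panels differ.

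The calls of experiment B depended on single libraries. This held for all genes as well as for the members, and the range of calls over all genes is given with the other settings below. All 4 member calls were lost without control replicate 1, control replicate 2, Cre+ replicate 2 or Cre+ replicate 4. Without control replicate 3 only Mthfd2 was called, and without Cre+ replicate 3 only Gdf15. Without control replicate 4, the library that stood apart, 5 members were called, the same 4 and Nupr1. The signs of all 4 fold changes were the same under each of the 18 other settings tried.

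ATF4 and its C/EBP partners bind a composite sequence, TGATGNAA, which was searched on both strands in RefSeq promoter windows (assembly GRCm38.p6) of 300 bases, from 250 before to 50 after each start site. Windows were found for 28 of the 32 members, all but Eif4ebp1, Slc7a5, Aldh1l2 and Cth. The sequence was present for 9 of the 28 (32.1%), against 1219 of 27025 genes (4.51%), namely Asns, Chac1, Fgf21, Nupr1, Pycr1, Slc1a4, Slc7a11, Trib3 and Vldlr. A match is a description of the letters and not a bound site, and known targets of ATF4 are among the members. The full palindrome TGACGTCA, the cyclic AMP response element, was present for 0 of the 28 and for 2.03% of all genes. The lines below show 30-base windows, 5′ to 3′ on the gene's strand with the match in capitals, for the 4 matched members whose groups did not overlap in experiment B (Nupr1, Slc1a4, Pycr1, Vldlr) and for 2 matched members whose groups did (Chac1, Trib3).
Nupr1: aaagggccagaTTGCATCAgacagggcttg
Slc1a4: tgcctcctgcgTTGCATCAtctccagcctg
Pycr1: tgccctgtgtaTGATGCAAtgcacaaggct
Vldlr: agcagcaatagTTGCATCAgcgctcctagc
Chac1: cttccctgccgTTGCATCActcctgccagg
Trib3: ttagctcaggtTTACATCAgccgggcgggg
The Nupr1 window lies at chr7:126625562-126625591 on the minus strand, with its match 110 bases before the start site. The Slc1a4 window lies at chr11:20332699-20332728 on the minus strand, with its match 4 bases before the start site. The Pycr1 window lies at chr11:120643833-120643862 on the minus strand, with its match 103 bases before the start site, and it is the one of these 6 that reads TGATGNAA on the gene's own strand. The Vldlr window lies at chr19:27216809-27216838 on the plus strand, 200 bases before the downstream one of its annotated starts. The Chac1 window lies at chr2:119351038-119351067 on the plus strand, with its match 193 bases before the start site. The Trib3 window lies at chr2:152344028-152344057 on the minus strand, and its match falls 14 bases after the start site.

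Mthfd2 and Gdf15, which rose in Cre+ hearts, had no match in their windows. Their 250 bases before the start site are shown because they carried the called rises without the composite sequence; for Gdf15 the upstream one of its annotated starts is given, and the other had no match either.
Mthfd2: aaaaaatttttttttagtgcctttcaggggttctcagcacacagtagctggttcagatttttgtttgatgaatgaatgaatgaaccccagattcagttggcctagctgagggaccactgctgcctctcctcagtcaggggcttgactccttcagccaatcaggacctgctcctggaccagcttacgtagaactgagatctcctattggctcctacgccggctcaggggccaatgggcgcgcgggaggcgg
Gdf15: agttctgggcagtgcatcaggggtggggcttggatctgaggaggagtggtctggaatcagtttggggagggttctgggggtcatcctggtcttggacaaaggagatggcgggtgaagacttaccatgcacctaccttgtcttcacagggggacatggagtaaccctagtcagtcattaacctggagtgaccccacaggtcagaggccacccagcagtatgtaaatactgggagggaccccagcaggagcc
The Mthfd2 stretch is chr6:83317605-83317854 and the Gdf15 stretch chr8:70632457-70632706, both on the minus strand of GRCm38. G and C made up 52.4% of the first and 56.4% of the second. A missing match says only that these letters are not in the window.

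Among the 7 transcription factors and coregulators, none was called in either experiment, and Nupr1 and Atf4 were higher in every Cre+ library than in every control. At an unadjusted p under 0.05, 3 were higher in experiment A and 2 in experiment B, where 5.11% and 7.89% of all genes were. Nupr1 encodes a small stress-induced chromatin protein that acts downstream of ATF4. Its normalized counts were 48, 103, 142, 12 and 140 in controls and 280, 816, 498 and 292 in Cre+ hearts. The lowest Cre+ value lay well above the highest control value, and control replicate 4 was the lowest of all. The log2 difference was 2.54 (SE 0.61) with a limma adjusted p of 0.0618, which became 0.0282 without control replicate 4, 0.00836 without control replicate 5 and 0.0406 without Cre+ replicate 1. Leaving out any other single library gave an adjusted p of 0.0871 to 0.264. In experiment A, Nupr1 lay at 2.48, 4.59 and 4.10 CPM in wild-type hearts and at 7.77, 5.63 and 9.54 CPM in CAP2 -/- hearts. The groups did not overlap there either, at low levels. Of the 8 exonic blocks of Nupr1, 2 had at least 50 wild-type reads. Their ratios of CAP2 -/- to wild type were 0.902 and 2.17, and both overlapped between groups. The log2 difference of 1.07 (SE 0.29) had an edgeR adjusted p of 0.0888 and a DESeq2 adjusted p of 0.0356, and the authors' deposited table gives a log2 fold change of 1.04 with an adjusted p of 0.0259.

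Atf4 encodes the central factor of the response, which is controlled largely through its translation. Its normalized counts in experiment B were 688, 750, 698, 289 and 674 in controls and 845, 1051, 981 and 1579 in Cre+ hearts. Every Cre+ value was above every control value, with control replicate 4 far below the other controls and Cre+ replicate 4, a male, the highest. The log2 difference was 0.86 (SE 0.32) with a limma adjusted p of 0.160, and it was 0.42 in females alone, with an adjusted p of 0.304. In experiment A, Atf4 lay at 72.5, 74.2 and 66.4 CPM in wild-type hearts and at 72.9, 101.9 and 87.4 CPM in CAP2 -/- hearts. One CAP2 -/- library lay within the wild-type range, and the difference of 0.30 (SE 0.13) had an edgeR adjusted p of 0.430. Ddit3 encodes CHOP, a partner of ATF4 in prolonged stress. It lay at 12, 14.5 and 11.8 CPM in wild-type hearts and at 18.9, 16.7 and 16.2 CPM in CAP2 -/- hearts, without overlap. The groups differed by 0.44 (SE 0.17) on the log2 scale, with an edgeR adjusted p of 0.342. In experiment B the Ddit3 groups overlapped, at 45 to 258 normalized counts in controls and 189 to 312 in Cre+ hearts. Ddit3 overlaps Mars, a tRNA synthetase gene on the opposite strand, and the strand setting of the counting is not given in the sources used here. Other members overlap annotated genes too, among them Mthfd2 with Gm43890 on the same strand. Slc7a5 overlaps Gm20388 and Atf5 overlaps Nup62, both on the opposite strand. The effect of such overlaps on the values was not tested. Trib3, a pseudokinase induced by ATF4 and CHOP, and Atf5, a related factor linked to mitochondrial stress, overlapped in both experiments, with differences of 0.46 and 0.41 in experiment B. Cebpb and Cebpg, which encode the C/EBP partners, had differences of 1.11 and -0.38 in experiment B and of -0.13 and 0.06 in experiment A, all with overlapping groups.

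**Figure D2:**
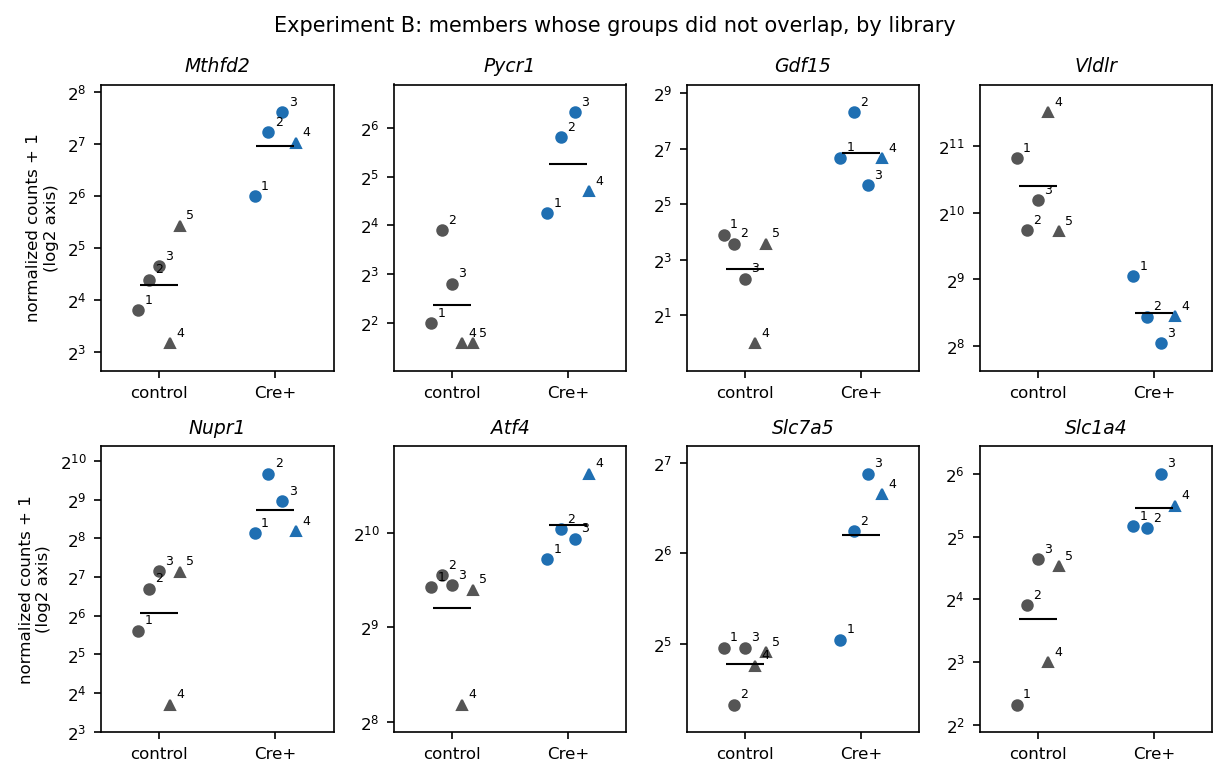
Normalized counts + 1 (log2 axis) in each library of experiment B for the 8 members whose groups did not overlap; circles are females, triangles males, numbers replicates, and bars the mean on the log2 scale. For all but Vldlr the 4 Cre+ libraries lie above the 5 controls, and for Slc7a5 the gap between 32 in Cre+ replicate 1 and 30 in controls is narrow.

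The 3 enzymes of serine synthesis were expressed at low levels and none was called. Phgdh encodes the first enzyme, which draws serine from glycolysis. Its normalized counts were 0, 12, 14, 1 and 8 in controls and 12, 28, 40 and 26 in Cre+ hearts. The groups overlapped through Cre+ replicate 1, whose value equalled that of control replicate 2. The log2 difference of 2.28 (SE 0.84) had a limma adjusted p of 0.158. In experiment A, Phgdh lay at 0.351 to 0.603 CPM in wild-type and 0.215 to 0.445 CPM in CAP2 -/- hearts, too few reads for a test. Psat1, the transaminase of the pathway, ran from 12 to 29 normalized counts in controls and from 25 to 43 in Cre+ hearts (log2 difference 0.72, SE 0.36). Psph, the phosphatase that releases serine, differed by 0.21 (SE 0.30) in experiment B and by 0.0044 (SE 0.21) in experiment A.

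Of the 5 folate enzymes, Mthfd2 was the one that rose in Cre+ hearts. It encodes the mitochondrial dehydrogenase and cyclohydrolase that oxidizes folate-bound one-carbon units, at chr6:83305691-83325908 on the minus strand, and is usually low in adult tissue. Its normalized counts were 13, 20, 24, 8 and 42 in controls and 63, 148, 194 and 129 in Cre+ hearts. All Cre+ libraries were above all controls, with Cre+ replicate 1 the closest. The means of 21.4 ± 13.1 (SD, n = 5) and 133.5 ± 54.4 (SD, n = 4) differed 6.24-fold. The log2 difference was 2.68 (SE 0.48) with a limma adjusted p of 0.0226, and without control replicate 1 or 2 or Cre+ replicate 2, 3 or 4 the adjusted p was 0.0659 to 0.110. In experiment A, Mthfd2 lay at 6.94, 5.65 and 4.49 CPM in wild-type hearts and at 5.42, 21.1 and 10.96 CPM in CAP2 -/- hearts. CAP2 -/- replicate 1 was within the wild-type range and the other two were above it. The difference of 1.13 (SE 0.46) had an edgeR adjusted p of 0.450. It was 1.47 without CAP2 -/- replicate 1 (adjusted p 0.0107) and 0.53 without CAP2 -/- replicate 2 (0.734).

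None of the other 4 folate enzymes was called in either experiment. Shmt2, which makes mitochondrial one-carbon units from serine, lay at 146 to 255 normalized counts in controls and 152 to 160 in Cre+ hearts, a log2 difference of -0.29 (SE 0.21). Shmt1, its cytosolic counterpart, lay at 23 to 66 and 20 to 36, a difference of -0.72 (SE 0.36). Mthfd1l, which releases formate from mitochondria, ran from 4 to 17 in controls and from 9 to 38 in Cre+ hearts (0.91, SE 0.52). Aldh1l2, which burns mitochondrial one-carbon units to carbon dioxide, was at 4 to 17 in 4 controls, 81 in control replicate 4 and 5 to 9 in Cre+ hearts. Set against related enzymes in the same library and per kilobase of exon, Mthfd2 stood at 0.545 to 2.96 times its paralogue Mthfd2l in controls and at 3.34 to 35.3 times in Cre+ hearts. Against the cytosolic enzyme gene Mthfd1, the ratio was 0.0563 to 0.645 in controls and 1.41 to 3.74 in Cre+ hearts, without overlap. In experiment A the ratio of Mthfd2 to Mthfd1 ran from 0.141 to 0.217 in wild-type and from 0.163 to 0.676 in CAP2 -/- hearts, which overlapped. These pairs of genes were chosen after the values were seen.

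Pycr1, at chr11:120635712-120643769 on the minus strand, encodes the mitochondrial enzyme of the last step of proline synthesis. Its normalized counts were 3, 14, 6, 2 and 2 in controls and 18, 55, 79 and 25 in Cre+ hearts. The groups did not overlap, although control replicate 2 at 14 and Cre+ replicate 1 at 18 lay close together. The means of 5.4 ± 5.08 (SD, n = 5) and 44.3 ± 28.2 (SD, n = 4) differed 8.19-fold. The log2 difference of 2.73 (SE 0.55) had a limma adjusted p of 0.0370, which was 0.0903 in females alone. Without control replicate 1, 2 or 3 or Cre+ replicate 2, 3 or 4 it was 0.0518 to 0.172. In experiment A, Pycr1 lay at 0.745 to 2.22 CPM in wild-type and 1.74 to 2.64 CPM in CAP2 -/- hearts (0.51, SE 0.43). Aldh18a1, which encodes the enzyme of the first steps of proline synthesis, had overlapping groups in both experiments, with log2 differences of 0.53 (SE 0.25) in B and 0.32 (SE 0.18) in A.

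None of the 5 amino acid transporters was called, and the 3 tested in experiment B were all higher at an unadjusted p under 0.05, where 7.89% of all genes were. Slc7a5, the light chain of the large neutral amino acid exchanger, had 30, 19, 30, 26 and 29 normalized counts in controls and 32, 75, 117 and 100 in Cre+ hearts. Cre+ replicate 1 was just above the controls and the other 3 Cre+ libraries were far above. The groups differed by 1.47 (SE 0.37) on the log2 scale, with a limma adjusted p of 0.0698, which was 0.0144 without Cre+ replicate 1 and 0.0636 to 0.295 without any other single library. Slc3a2, the heavy chain that pairs with it, overlapped between groups, at 101 to 310 in controls and 161 to 454 in Cre+ hearts (1.05, SE 0.37, limma adjusted p 0.147). Slc1a4, a neutral amino acid carrier that takes up serine, had 4, 14, 24, 7 and 22 normalized counts in controls and 35, 34, 63 and 44 in Cre+ hearts. All 4 Cre+ libraries were above the controls. The log2 difference of 1.78 (SE 0.51) had a limma adjusted p of 0.0946. In experiment A, Slc7a5 and Slc1a4 overlapped between groups, with log2 differences of 0.13 (SE 0.23) and 0.27 (SE 0.34). Slc7a11, the cystine carrier, was at 0 in 7 of the 9 libraries of experiment B and never above 2, and lay at 1.93 to 3.14 CPM in experiment A. Slc6a9, a glycine carrier, lay at 4 to 13 normalized counts in controls and 3 to 5 in Cre+ hearts, under the minimum for the test.

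The enzymes of asparagine, transsulfuration and glutathione metabolism showed no call. Asns, which makes asparagine and is a classic target of ATF4, ran from 5 to 30 normalized counts in controls and from 24 to 39 in Cre+ hearts. The ranges overlapped through control replicate 3, and the log2 difference of 1.16 (SE 0.47) had a limma adjusted p of 0.187. Chac1, which degrades glutathione and marks strong activation of the response in cultured cells, lay at 10 to 24 in controls and 13 to 28 in Cre+ hearts, a difference of 0.11 (SE 0.39). Cth and Cbs, the enzymes of transsulfuration, were under the minimum for the test in experiment B. Cth lay at 2 to 17 normalized counts in controls and 0 to 5 in Cre+ hearts, and Cbs at 0 to 21 and 1 to 15. In experiment A their log2 differences were -0.15 (SE 0.36) and -0.40 (SE 0.48).

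Gdf15 encodes a circulating stress hormone that acts on appetite centres of the hindbrain. It lies at chr8:70629393-70632456 on the minus strand, and it had the highest log2 difference of the tested members in both experiments. Its normalized counts were 14, 11, 4, 0 and 11 in controls and 101, 316, 50 and 100 in Cre+ hearts. All controls were at 14 or below and all Cre+ hearts at 50 or above, with Cre+ replicate 2 the highest. The means of 8 ± 5.79 (SD, n = 5) and 141.8 ± 118.6 (SD, n = 4) differed 17.7-fold. The log2 difference was 4.00 (SE 0.76) with a limma adjusted p of 0.0280, and without control replicate 1, 2 or 3 or Cre+ replicate 2 or 4 the adjusted p was 0.0653 to 0.156. In experiment A, Gdf15 lay at 2.88, 1.11 and 1.93 CPM in wild-type hearts and at 2.54, 3.85 and 8.33 CPM in CAP2 -/- hearts. The groups overlapped through CAP2 -/- replicate 1, and the difference of 1.27 (SE 0.44) had an edgeR adjusted p of 0.282. Without CAP2 -/- replicate 3 it was 0.65 (adjusted p 0.700). The authors' deposited table gives Gdf15 an adjusted p of 0.0948. Fgf21, the other secreted hormone, was close to undetected: 0, 1, 0, 0 and 0 normalized counts in controls and 1, 5, 0 and 4 in Cre+ hearts. In experiment A its estimated counts were 3.99, 1 and 3.60 in wild-type and 1, 0 and 0 in CAP2 -/- hearts, which is too few to compare.

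Vldlr, the receptor through which heart muscle takes up triglyceride-rich lipoproteins, is a known ATF4 target in liver and was the one called member that fell. It lies at chr19:27216484-27254231 on the plus strand. Its normalized counts in experiment B were 1812, 853, 1168, 2910 and 848 in controls and 528, 347, 263 and 349 in Cre+ hearts. All Cre+ values were below all control values, and control replicate 4 was the highest. The log2 difference was -1.87 (SE 0.38) with a limma adjusted p of 0.0378, and without control replicate 1, 2 or 3 or Cre+ replicate 2, 3 or 4 the adjusted p was 0.0659 to 0.169. In experiment A, Vldlr lay at 415, 432 and 461.5 CPM in wild-type hearts and at 306, 322 and 292 CPM in CAP2 -/- hearts. The groups were tight and did not overlap, with means of 436.2 ± 23.5 and 306.5 ± 14.9 CPM (SD, n = 3 each). The log2 difference of -0.51 (SE 0.11) had an edgeR adjusted p of 0.0223, and leaving out any one of replicates 2 and 3 of either group gave an adjusted p of 0.0615 to 0.150. The authors' deposited table gives -0.51 with an adjusted p of 0.00062. Along the gene, 25 of its 34 exonic blocks had at least 50 wild-type reads, and all 25 were lower in CAP2 -/- hearts. Their ratios of CAP2 -/- to wild type ran from 0.482 to 0.878 with a median of 0.668, and 17 of the 25 had groups that did not overlap. These blocks hold reads of the libraries that gave the call, so they are not separate support for it. The same count over the blocks of all genes was not made.

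The other 3 of these targets were not called. Eif4ebp1, a repressor of translation initiation, ran from 193 to 502 normalized counts in controls and from 322 to 768 in Cre+ hearts (1.01, SE 0.36, limma adjusted p 0.147). Sesn2, an inhibitor of mTORC1 signalling, had a difference of 0.41 (SE 0.35) in experiment B and -0.33 (SE 0.27) in experiment A. Ddit4, another mTORC1 inhibitor, varied widely among replicates, with 37 to 707 normalized counts in controls and 222 to 962 in Cre+ hearts. In experiment A it lay at 96.0 to 132.3 CPM in wild-type and 58.5 to 100.9 CPM in CAP2 -/- hearts, a difference of -0.47 (SE 0.19, edgeR adjusted p 0.385).

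**Figure D3:**
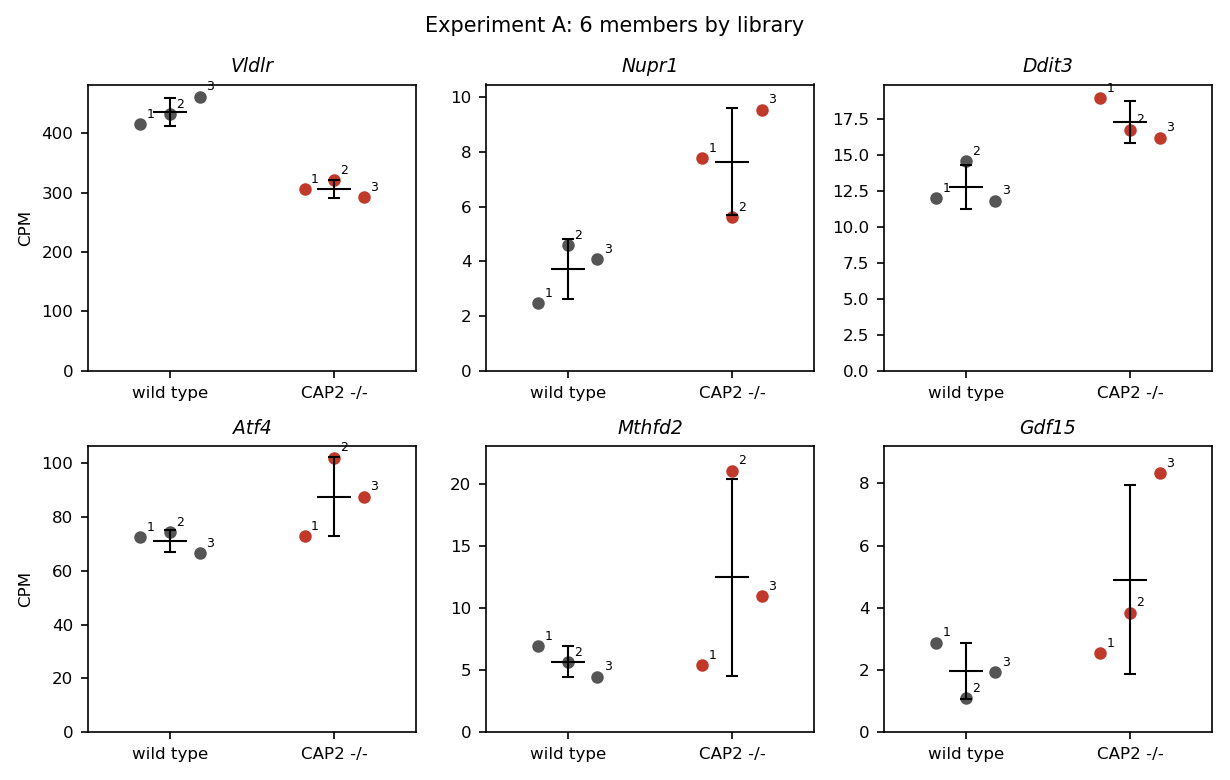
CPM in each library of experiment A for 6 members, with the mean and SD (n = 3 per group) as bars and replicate numbers beside the points. Vldlr (415 to 461.5 against 292 to 322), Nupr1 and Ddit3 do not overlap between groups, while Atf4, Mthfd2 and Gdf15 do, each through CAP2 -/- replicate 1.

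Per kilobase of exon, Ddit4, Vldlr, Atf5 and Atf4 were the most abundant members in the control groups of both experiments. In wild-type hearts of experiment A, Ddit4 had 63.8 CPM per kilobase, Vldlr 43.3, Atf5 38.6 and Atf4 30.1. In controls of experiment B, Atf4 had 263 and Atf5 262 normalized counts per kilobase, which did not differ beyond their spread. Mthfd2 stood at 6.14 normalized counts per kilobase in controls, the 18th of the 32 members, and at 38.3 in Cre+ hearts. Gdf15 stood at 4.32 and 76.5 and Pycr1 at 1.37 and 11.3 on the same scale. Vldlr moved the other way, from 151 in controls to 36.9 in Cre+ hearts.

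Control replicate 4, the library that stood apart, was the lowest of all 9 libraries for 13 of the 27 tested members, while it was lowest for 28.9% of all genes tested. Cre+ replicate 1 was the lowest Cre+ library for 13 of 27 members, and Cre+ replicate 3 was the highest of all libraries for 12. Some sets of markers of other tissue were higher in Cre+ hearts and others were not, and 0 of the 6 atrial markers below were called by limma. The summed level of 6 atrial markers (Nppa, Myl7, Myl4, Sln, Bmp10 and Stard10) was 105 to 9895 normalized counts in controls and 83867 to 175240 in Cre+ hearts, where most of it was Nppa, a gene that failing ventricles also express. Myl7, the atrial light chain, had 21, 344, 3014, 16 and 58 normalized counts in controls and 105, 6996, 10677 and 17044 in Cre+ hearts. Cre+ replicate 1 was within the control range for Myl7 but had 83376 normalized counts of Nppa, far above every control.

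With the mean of the 6 atrial markers as a term in the limma fit, 9 of all genes tested were called, against 228 in the main fit. With that term 0 members were called and the member median fell to 0.21. The log2 differences were then 1.71 for Mthfd2 (adjusted p 0.628), 1.89 for Pycr1 (0.883), 3.58 for Gdf15 (0.598) and -1.10 for Vldlr (0.898). This term itself differed between the groups, since Nppa was at 0 to 2511 normalized counts in controls and at 80982 or more in Cre+ hearts. Mitochondrially encoded genes took 30.4% to 69.5% of the counts in controls and 23.0% to 52.7% in Cre+ hearts. With their ratio to nuclear counts as a term, 36 of all genes tested and 0 members were called. The limma log2 differences were then 2.58 for Mthfd2 (adjusted p 0.130), 2.39 for Pycr1 (0.177), 4.18 for Gdf15 (0.118) and -1.87 for Vldlr (0.146). Summed fibroblast markers ran from 3381 to 14380 normalized counts in controls and from 11489 to 39203 in Cre+ hearts, and in experiment A from 936 to 1009 and from 1326 to 1413 CPM. Skeletal muscle markers summed to 10 to 28 in controls and 283 to 2299 in Cre+ hearts. Only 2 of these 5 markers, Tnni2 and Tnnt3, were tested, and both were called higher. Myh4, Myh1 and Actn3 averaged under 10 normalized counts and were not tested. Macrophage markers summed to 453 to 1425 and 1093 to 2492. Endothelial markers summed to 2648 to 4561 and 3042 to 4448, and smooth muscle, red cell, fat and liver markers also overlapped between groups. In experiment A the atrial sum was 114 to 156 CPM in wild-type and 3848 to 4586 CPM in CAP2 -/- hearts, nearly all of the latter Nppa. The part of fibroblast, skeletal muscle and macrophage RNA in the member differences was not tested.

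**Figure D4:**
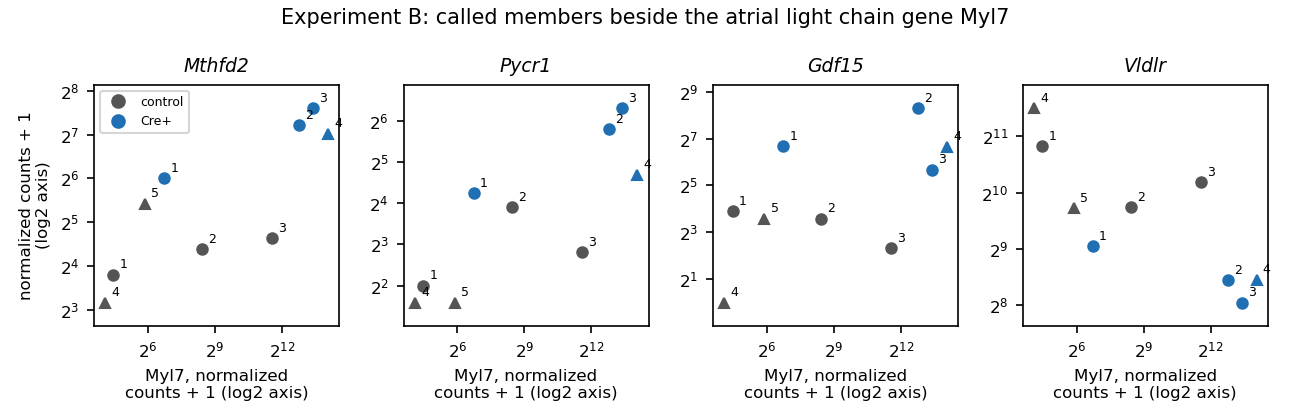
Normalized counts + 1 of the 4 called members of experiment B (vertical, log2 axis) against those of the atrial gene Myl7 (horizontal, log2 axis) in each library; grey is control, blue Cre+, circles females, triangles males, numbers replicates. Cre+ replicates 2 to 4 have the highest Myl7 (6996 to 17044), while Cre+ replicate 1 (105) lies within the control range of 16 to 3014.

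The wider pathway, 104 further genes in 7 lists, held 1 call in each experiment. In experiment B, limma called 0 of 98 tested higher and 1 lower, where 1.88% of all genes were called. At an unadjusted p under 0.05, 13 were higher and 9 lower, against 7.89% and 14.2% of all genes, and the median log2 difference was -0.02, against -0.12 over all genes. The gene called was Dele1, which carries mitochondrial stress signals to the eIF2 kinase HRI: it lay at 491 to 893 normalized counts in controls and 203 to 368 in Cre+ hearts, a difference of -1.24 (SE 0.25, adjusted p 0.0370). In experiment A, Dele1 overlapped between groups, at 187.4 to 226.8 and 171.2 to 189.4 CPM. There, edgeR and DESeq2 each called 0 of the 103 tested pathway genes higher and 1 lower, with 5 higher and 8 lower by edgeR at an unadjusted p under 0.05, against 5.11% and 5.32% of all genes. The gene was Mtr, the methionine synthase that links folate to the methionine cycle, at 106 to 115.5 CPM in wild-type and 46.0 to 81.9 CPM in CAP2 -/- hearts (-0.89, SE 0.19, edgeR adjusted p 0.0394). In experiment B, Mtr was lower in all Cre+ libraries as well (-0.97, SE 0.26, limma adjusted p 0.0772). The 20 cytosolic tRNA synthetase genes, which ATF4 also controls, had 0 calls and a median of 0.12 in experiment B, with 3 higher and 0 lower at an unadjusted p under 0.05, to be read against the same 7.89% and 14.2% of all genes, as are the next counts. The 15 other ATF4 and CHOP targets tested had 0 calls and a median of 0.56, with 6 higher and 2 lower at that level. The list of mitochondrial proteases and chaperones, which also holds the transcription factor gene Tfam, had 0 calls and a median of -0.36. In it, 2 genes, Hspd1 and Tfam, were lower and 0 higher at that level. The 17 other one-carbon, glycine and methionine cycle genes tested had 0 calls and a median of -0.32, with 1 higher and 1 lower. The 8 other proline and glutamate genes had 0 calls and a median of -0.23, with 0 higher and 1 lower. The 13 other amino acid transporters tested had 0 calls and a median of 0.25, with 2 higher and 1 lower. The 16 genes around eIF2, Dele1 among them, had a median of -0.01, with 1 higher and 2 lower.

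Set side by side, 26 members were tested in both experiments, and 18 of them had the same sign (69.2%), 15 higher in both and 3 lower in both. Over all 11806 genes tested in both, the share was 57.6%. Pycr1 and Gdf15, both among the 15, met the minimum of experiment B only through their Cre+ libraries, so they had to be higher there. Members under that minimum, such as Cth and Slc6a9 with lower means in Cre+ hearts, are not counted. One member, Vldlr, was called in both experiments, among 61 genes in all. The experiments share no library, but they differ in age, sex, allele and library kit, which cannot be told apart here. The difference between experiments was not tested for any member.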

How the data were processed

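The members and gene lists were chosen with earlier results of these data known. The submitters' processing notes name mm10, STAR 2.6.0c and DESeq without saying what each was used for; which annotation and counting tool were used is not given in the sources used here. Experiment A was deposited as estimated counts by gene, with rows per exon and transcript. Transcript values, a score from 0 to 1, were deposited without a stated definition. The authors' deposited comparison of experiment A holds a mean signal, log2 fold changes and p-values. For experiment B the authors deposited whole normalized counts, a score here because the normalization is not stated, so no count test was run. A 5th Cre+ sample was not analysed here, leaving 15 of 16 libraries.

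Genes were placed with GENCODE M21. Rounded estimated counts were tested with edgeR 4.0.16 (TMM, filterByExpr, robust quasi-likelihood) and as an alternative with DESeq2 1.42.0. Genes averaging 10 or more normalized counts entered limma 3.58.1 (robust trend), fitted to log2(value + 1) with a sex term; such fold changes understate those of low genes. P-values are two-sided. Every member is accounted for, with values per library for those called or with groups that did not overlap, and for Atf4, Phgdh, Mthfd2, Fgf21 and Gdf15. On simulated data 72.9% of 2-fold changes were recovered in the design of experiment A (16049 genes) and 17.4% in that of experiment B (11929 genes). No replicate pair agreed within sampling noise in experiment A (chi-square per gene at least 10.7).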

Additional observations from a re-analysis of the deposited data

Results flagged for a closer look

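In experiment B, 54 groups of libraries (27 members in controls and in Cre+ hearts) were checked for a library far from the others of its group, and 3 were found; chance gives about 1 in 20 groups. Atf4 was at 289 normalized counts in control replicate 4, below the 674 to 750 of the other controls. Aldh1l2 was at 81 in the same library, above the 4 to 17 of the other controls. Shmt1 was at 36 in Cre+ replicate 1, above the 20 to 21 of the other Cre+ hearts.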

How the results depend on the processing

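All alternatives were planned. In experiment A, 220 genes and 1 member were called; DESeq2 gave 400 and 2, no filter on low counts 512 and 5 (Ddit4, Gdf15, Mthfd2, Nupr1 and Vldlr), and leaving out 1 library 126 to 275 and 0 to 2. Slc7a5, at 0.13, turned to -0.017 without wild-type replicate 3 and ran from there to 0.285 over such fits. In experiment B, 228 genes and 4 members were called; no filter on low values gave 346 genes, the mitochondrial term 36 genes and 0 members, the atrial term 9 genes and 0 members with a member median of 0.21, and leaving out 1 library 39 to 695 genes and 0 to 6 members. The split of all calls, 115 higher and 113 lower, was 139 and 71 with TMM scaling and 211 and 124 with quantile normalization, where the members called were 4 and 6. Of the fold changes recomputed for 10 members in experiment B and 9 in experiment A, 139 of experiment B kept their side of the threshold, 31 lost and 10 gained a call; in experiment A these were 88, 5 and 5. The cause was not tested. Deviations of same-numbered libraries from their group means correlated at -0.17 to -0.02 in A and at -0.11 to 0.24 in B. In B, libraries with different numbers ran from -0.47 to 0.35. With so few libraries a group, these correlations cannot show whether the replicate numbers pair them. With a replicate block, 115 genes higher, 51 lower and 0 members were called in experiment A and 394 genes and 6 members in experiment B. Unknown depth in experiment B limits all low members, as no counting error can be given.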

Other observations

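Within experiment A, 4 of 30 member transcripts with enough reads (13.3%) had deposited scores that did not overlap between groups. The score is read here as a share of its gene, a meaning that is not stated. For gene totals, a different measure, groups did not overlap for 15.6% of all genes tested. The same count over all transcripts was not made, and overlap among 3 libraries a group does not show that a share was kept. The first was in Asns, where transcript ENSMUST00000031766 took 78.8%, 71.2% and 52.9% of the gene in wild-type hearts and 39.7%, 37.8% and 6.01% in CAP2 -/- hearts. The total of Asns overlapped between groups (3.23 to 4.21 and 4.19 to 5.72 CPM). In Aldh1l2, transcript ENSMUST00000020497 took 48.5%, 69.0% and 72.2% in wild-type and 83.9%, 77.4% and 85.0% in CAP2 -/- hearts. The others were single transcripts of Aldh18a1 (12.8% to 16.8% in wild-type and 17.6% to 22.6% in CAP2 -/- hearts) and Eif4ebp1. The Eif4ebp1 shift was small, from 96.53% to 97.47% in wild-type and from 96.34% to 96.44% in CAP2 -/- hearts. No test was run on these shares, whose definition and method are not stated, and at these depths they are uncertain.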
